A study of Mus musculus with 20 samples.

Results

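Overexpression of Klf5 in mouse embryonic stem cells (ESCs, pluripotent cells taken from the blastocyst) was compared with overexpression of green fluorescent protein (GFP) across all genes. The 4 libraries concerned, 2 of each kind, were chosen by their labels out of 20 in the series. The other 16 are single E4.5 embryos injected with scramble or Klf5 siRNA, which enter only the last comparison. Both ESC groups came from a C57BL/6J line grown in Knockout DMEM with LIF on irradiated fibroblast feeders, and they differed by label in the overexpressed gene alone. The promoter and vector of the transgenes, and whether the lines were clones, are not given in the sources used here. Nothing in the labels says that the 2 libraries of a group came from separate cultures, so p-values reflect the spread among these 4 samples alone, and that spread may be technical.

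Krüppel-like factors are transcription factors whose zinc fingers bind GC-rich and CACCC elements in promoters and enhancers. Klf5 is one of several family members present in ESCs, where it is known for a shared role with Klf2 and Klf4 in self-renewal. In the blastocyst it is needed for trophectoderm and for a normal inner cell mass.

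The promoters below belong to the first 4 rising genes, by p, whose window held a CCNCNCCC match on either strand. They are shown because this short motif covers the core that Krüppel-like and Sp factors recognise. Sequences are from RefSeq (GRCm38.p6) and run 5′ to 3′ on the gene's strand from 250 bases before the start to 50 after it, with matches on either strand in capitals. Islr2 encodes a neuronal membrane protein with leucine-rich repeats (chr9:58204270-58204569, minus strand), and its 6 overlapping matches lie in a single run of C. Fgfr3 encodes a fibroblast growth factor receptor (chr5:33721474-33721773, plus strand) and has 3 matches on its own strand and 1 on the other. Zfhx2 encodes a zinc-finger homeobox factor (chr14:55091999-55092298, minus strand) with 3 matches. Nynrin (chr14:55853865-55854164, plus strand), whose product carries a domain related to retroviral integrase, has 3 matches on the opposite strand.
Islr2: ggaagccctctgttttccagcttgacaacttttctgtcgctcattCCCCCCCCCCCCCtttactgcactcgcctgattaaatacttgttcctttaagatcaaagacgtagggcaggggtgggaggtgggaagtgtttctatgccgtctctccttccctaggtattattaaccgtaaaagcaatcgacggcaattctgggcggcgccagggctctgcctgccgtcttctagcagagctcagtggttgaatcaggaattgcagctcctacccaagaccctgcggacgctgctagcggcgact
Fgfr3: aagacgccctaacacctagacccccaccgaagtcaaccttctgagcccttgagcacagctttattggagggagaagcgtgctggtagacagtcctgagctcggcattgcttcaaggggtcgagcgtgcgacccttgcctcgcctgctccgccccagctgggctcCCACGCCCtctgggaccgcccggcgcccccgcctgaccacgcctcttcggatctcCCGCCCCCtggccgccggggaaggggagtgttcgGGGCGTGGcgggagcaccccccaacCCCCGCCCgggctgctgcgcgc
Zfhx2: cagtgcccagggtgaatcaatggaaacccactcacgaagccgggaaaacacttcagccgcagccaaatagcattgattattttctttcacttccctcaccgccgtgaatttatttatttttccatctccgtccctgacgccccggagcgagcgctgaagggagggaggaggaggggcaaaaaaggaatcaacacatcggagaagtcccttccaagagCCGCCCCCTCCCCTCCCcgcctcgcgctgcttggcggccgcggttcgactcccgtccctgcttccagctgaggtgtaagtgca
Nynrin: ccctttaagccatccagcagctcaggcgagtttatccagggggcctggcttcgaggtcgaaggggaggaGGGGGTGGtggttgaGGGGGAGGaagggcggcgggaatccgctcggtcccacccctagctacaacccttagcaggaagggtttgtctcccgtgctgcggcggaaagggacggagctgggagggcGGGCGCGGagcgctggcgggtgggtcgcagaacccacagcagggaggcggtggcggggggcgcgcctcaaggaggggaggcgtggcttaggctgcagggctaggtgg

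CCNCNCCC was found in 79.7% of the 182 promoters matched for genes called higher with Klf5 and in 79.5% of the 122 matched for genes called lower. The share was 69.6% of the 11476 matched for all genes tested and 49.1% of all 27025 promoters of the table. CCACACCC, a stricter form that every CCNCNCCC search also finds, was in 6.04%, 5.74%, 3.81% and 3.57% of the same sets. The median GC content of the windows was 62.5% for genes called higher, 61.2% for genes called lower and 60.7% for all genes tested. Promoters of genes that rose and of genes that fell held the looser motif at nearly the same share, and no test was made of these shares. A match is a match of letters and no evidence of binding.

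The ESC libraries held 26.8 and 36.9 (GFP 1 and 2) and 34.6 and 37.5 (Klf5 1 and 2) counts in units of 1e6. A count of 3 equals 0.0800 to 0.112 CPM (counts per 1e6 counts), for counting error only. All 16 ESC markers were detected in every library, with Pou5f1, the core pluripotency factor, between 2541 and 3082 CPM. Summed ESC marker levels were 7535 and 7720 CPM with GFP and 9108 and 8453 CPM with Klf5. None of the 16 passed the test; Sall4, a zinc-finger factor, came nearest at 234 and 257 against 370 and 337 CPM (edgeR adjusted p = 0.0623). Fibroblast markers, which feeders bring, summed to 2188 and 2265 CPM against 2576 and 2744 CPM. Both Klf5 libraries were above GFP in 12 of 19 and below in 2, beside 28.9% and 27.4% of all genes tested. Trophectoderm markers summed to 3202 and 1849 CPM against 738 and 1266 CPM, and primitive endoderm markers to 6721 and 5555 CPM against 5450 and 10830 CPM. Of the primitive endoderm markers, 12 of 19 were above and 0 below in both Klf5 libraries, with a median log2 fold change of 1.73. No tested marker of these lists was at 0 in any library. The marker sums move with the groups or with single libraries, and their part in the results below was not tested. In bulk RNA, fewer cells of a type and less RNA per cell cannot be told apart.

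The summed level of Y-linked genes did not follow the groups. The 5 tested genes of the list, out of 8 tested on the chromosome, summed to 66 counts (2.63 CPM) in GFP 1, 348 (9.43 CPM) in GFP 2, 324 (8.81 CPM) in Klf5 1 and 32 (0.852 CPM) in Klf5 2. Eif2s3y, a translation factor gene, stood at 0, 3.52, 3.78 and 0 CPM. GFP 1 and Klf5 2 were thus low and GFP 2 and Klf5 1 high, so each group holds a low and a high library. Kdm5d, a histone demethylase gene, was the exception at 2.07 and 2.36 CPM with GFP and 1.12 and 0.666 CPM with Klf5, and it did not pass (edgeR adjusted p = 0.0919). The cause of the split was not tested. Medians of autosomes in single libraries lay between −0.09 and 0.11 on the log2 scale relative to GFP, and the X chromosome at −0.10 and −0.14 in the Klf5 libraries.

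**Figure D1:**
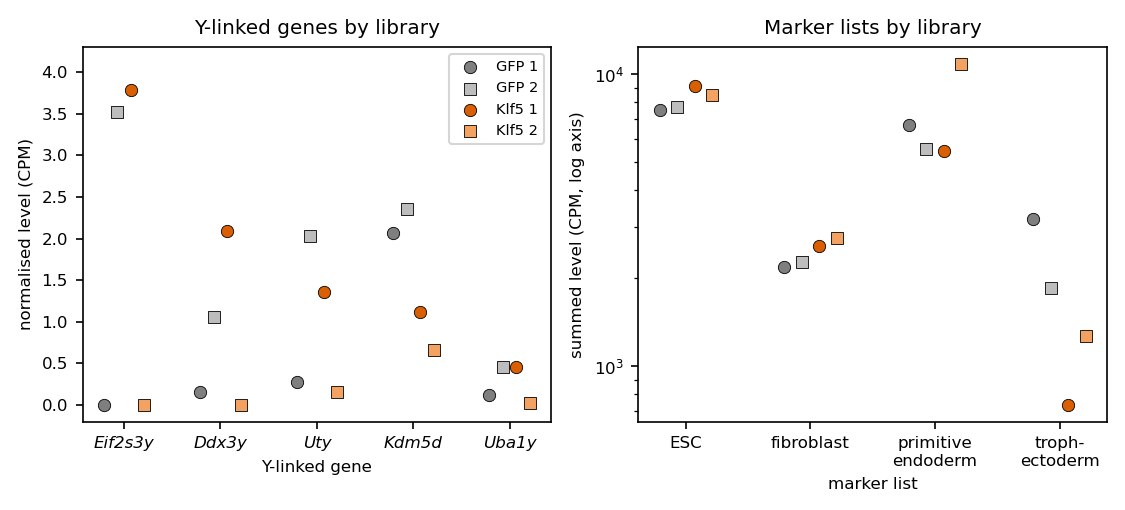
Left, CPM of 5 Y-linked genes in each ESC library. Right, summed CPM of 4 marker lists per library on a log axis. Grey points are GFP and orange points Klf5 libraries. Eif2s3y is at 0 in GFP 1 and Klf5 2 and near 3.5 to 3.8 CPM in the others, Kdm5d is lower in both Klf5 libraries, and trophectoderm markers are lower in both Klf5 libraries than in both GFP libraries.

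Klf5 itself, the check of the labels, stood at 80.5 and 70.8 CPM in the GFP libraries and at 942 and 882 CPM in the Klf5 libraries. It rose 12.1-fold (3.59 ± 0.14 on the log2 scale; adjusted p = 0.000323 by edgeR's quasi-likelihood test). The counts do not separate the introduced from the endogenous transcript. Of 15968 genes tested, 444 passed (2.78%), 266 higher with Klf5 (1.67%) and 178 lower (1.11%). Every other call had an edgeR adjusted p between 0.0285 and the threshold of 0.05, so that no gene but Klf5 passed by a wide margin. Without GFP 1, Klf5 was the 1 gene still called. Without GFP 2, 89 rose and 80 fell, of which 57 and 51 were among the calls with all 4 libraries. Without Klf5 1 there were 307 and 198, with 190 and 105 shared, and without Klf5 2 563 and 435, with 249 and 155 shared. All called genes that could be tested kept their direction whichever library was left out. That was all but fixed in advance, because all 266 rising and 178 falling genes had libraries that did not overlap between the groups. Below, "rose" and "fell" refer to the test with all 4 libraries. Log2 fold changes carry an SE, taken as the absolute change divided by the square root of the test's F. It restates the test and is not a separate measure of the spread between libraries. For ESCs, an adjusted p is given only for genes that missed the threshold.

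The called genes were mostly of moderate change. Their median fold was 2.09 among those that rose and 1.97 among those that fell, and 149 rose and 86 fell by at least 1 on the log2 scale. In 98 rising and 59 falling genes the nearest libraries of the groups were at least 2-fold apart, a gap seen upward in 1.21% and downward in 1.01% of all genes tested. Non-overlap alone was common: both Klf5 libraries lay above both GFP libraries in 28.9% of all genes tested and below them in 27.4%. The called genes included 420 protein-coding genes and 16 pseudogenes. Klf5 thus stood far from all other abundant genes, as the plot of fold change against level shows.

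**Figure D2:**
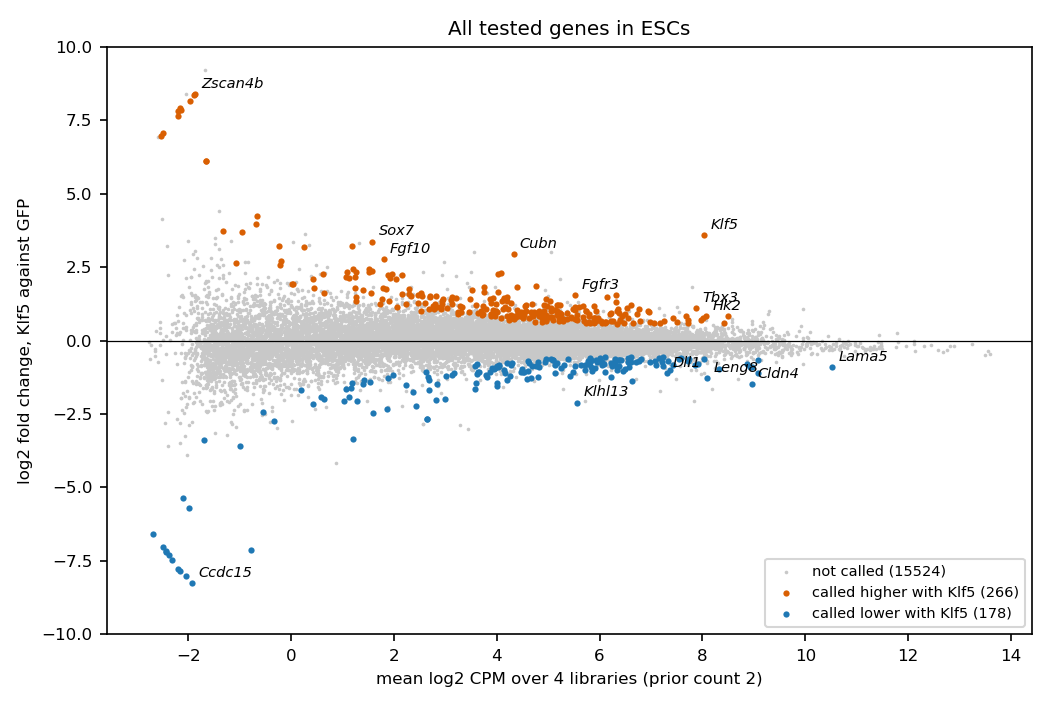
Fitted log2 fold change, Klf5 against GFP, against the mean log2 CPM of 4 ESC libraries, 1 point per tested gene. Orange points were called higher (266) and blue points lower (178). Klf5 stands alone at the upper right, and the points near ±7 to 8 are genes at 0 in 1 group, whose fitted values depend on the prior count.

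Among the 10 rising genes with the smallest p, several encode membrane and secretory proteins. Islr2 stood at 10.7 and 11.5 CPM with GFP and at 43.9 and 34.9 CPM with Klf5, a 3.55-fold rise (1.83 ± 0.16). Cmtm7, encoding a MARVEL-domain membrane protein, stood at 22.6 and 25.6 against 56.8 and 53.9 CPM (1.20 ± 0.13). In both genes each Klf5 library was far above each GFP library. Zfhx2 rose from 10.9 and 10.5 to 31.1 and 27.4 CPM (1.45 ± 0.15), and Nynrin from 49.2 and 52.6 to 140 and 112 CPM (1.31 ± 0.14). Both were higher in Klf5 1 than in Klf5 2, as was Islr2.

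Among the 10 falling genes with the smallest p were regulators of protein turnover, modification and RNA. Klhl13, encoding an adaptor of cullin ubiquitin ligases, stood at 98.6 and 101 CPM with GFP and 17.6 and 28.6 CPM with Klf5 (−2.11 ± 0.23). Ogt, encoding the enzyme that attaches O-GlcNAc to nuclear and cytosolic proteins, stood at 68.3 and 61.2 against 32.5 and 29.7 CPM (−1.06 ± 0.13). Igsf9, an immunoglobulin superfamily gene, stood at 123 and 106 against 46.5 and 50.3 CPM (−1.24 ± 0.13). The GFP libraries were close to each other in all 3 genes, and no library overlapped between the groups, as for every called gene. Snhg11, a small nucleolar RNA host gene, fell from 51.2 and 51.1 to 23.9 and 23.4 CPM (−1.11 ± 0.12). It was the 1 of 29 listed noncoding host genes found in the table. The plot of the genes with the smallest p shows these values by library.

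**Figure D3:**
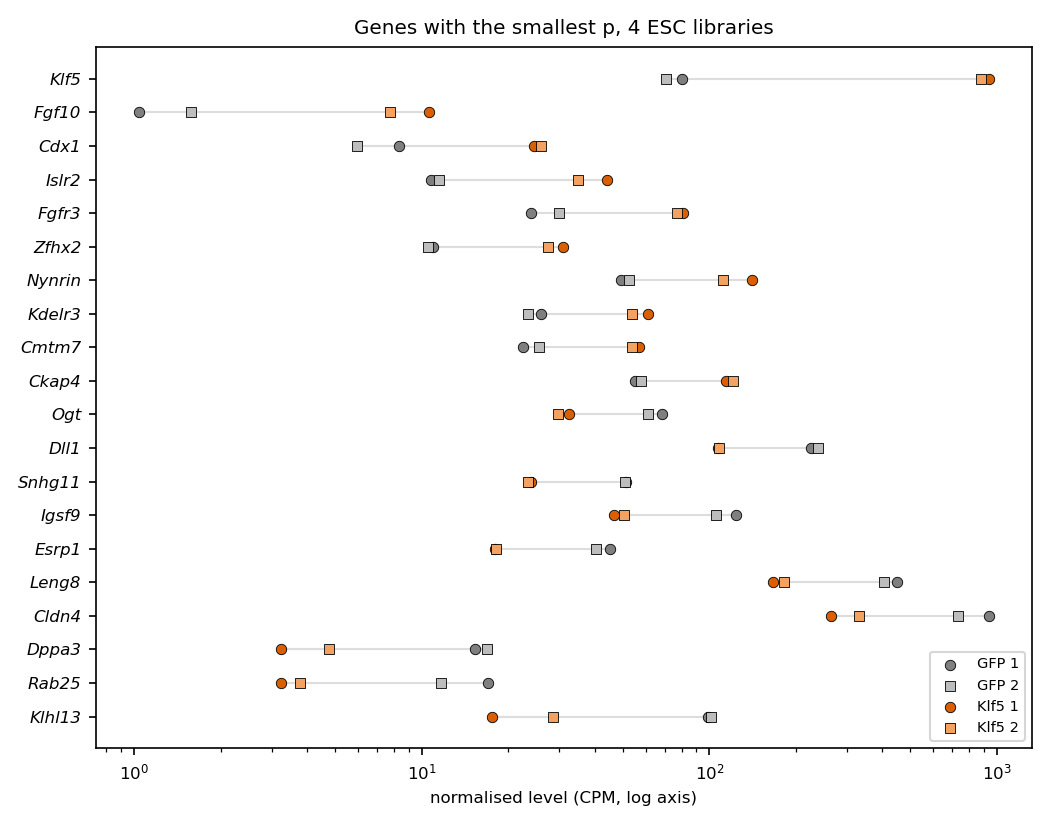
Normalised level in CPM (log axis) of the 20 called genes with the smallest p and a log2 fold change of at least 1, 10 rising and 10 falling. Grey points are GFP 1 and 2, orange points Klf5 1 and 2. No gene has overlapping groups, which holds for every called gene, and the gap is widest for Klf5.

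By mean CPM over the 4 libraries, the most abundant rising genes besides Klf5 were Irf2bpl, Tubb4b, Hk2 and Col1a2. Irf2bpl, encoding a nuclear cofactor, stood at 258 and 287 against 482 and 481 CPM (0.82 ± 0.12), and Tubb4b, a beta-tubulin gene, at 265 and 288 against 435 and 408 CPM (0.61 ± 0.11). Col1a2, a fibrillar collagen gene and fibroblast marker, stood at 181 and 213 against 353 and 323 CPM (0.78 ± 0.13). It was the 1 of 19 tested fibroblast markers that rose, and the list median was 0.38. Lama5, encoding the alpha chain of an embryonic laminin, was the most abundant falling gene at 2240 and 1799 against 994 and 1169 CPM (−0.90 ± 0.16). Fosb, an AP-1 subunit gene, stood at 877 and 708 against 344 and 400 CPM (−1.09 ± 0.15), and Ckb, encoding creatine kinase, at 706 and 653 against 341 and 392 CPM (−0.89 ± 0.13). All 3 falling genes were highest in GFP 1.

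A few genes changed far more at low levels. Gbp2, an interferon-inducible GTPase gene, stood at 7.68 and 6.50 CPM with GFP and 0.870 and 1.70 CPM with Klf5 (−2.45 ± 0.34). Rhox9, a homeobox gene of the X-linked Rhox cluster, fell 6.35-fold, and its counts were identical to those of another identifier in the table, so that its share of the reads is uncertain. Sox7 and Fam151a, by contrast, were above 4 CPM in both Klf5 libraries and under 1 CPM in both GFP libraries. Fam151a stood at 0.915 and 0.596 against 4.13 and 9.69 CPM (3.21 ± 0.49).

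Another 9 genes that rose were at 0 in both GFP libraries and 10 that fell were at 0 in both Klf5 libraries. Folds for them are lower bounds against a floor of 3 counts in each library, both on total counts. Cmah, encoding a sialic acid hydroxylase, had 39 counts in each Klf5 library and was at least 11.2-fold higher, and Zfp109, a zinc-finger gene, had 40 and 23 counts (at least 9.15-fold higher). Ccdc15, a coiled-coil gene, had 27 and 43 counts with GFP and was at least 13.0-fold lower. Zfand4 (23 and 36 counts, at least 11.0-fold lower), Ippk, an inositol phosphate kinase gene (30 and 17, at least 9.49-fold), and Slc37a4, a glucose-6-phosphate transporter gene (17 and 15, at least 6.25-fold), behaved alike in direction. Several of these 19 are pseudogenes or unnamed loci, where reads can be shared with a parent gene. The zeros were not traced to single transcripts, since the tables hold gene totals.

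Beyond single genes, 33 gene lists with 935 distinct genes were read. They were chosen with earlier results of these data known, so their counts are descriptive and were not a test. Of the 871 members tested, 43 rose and 29 fell, and 31 lists had at least 1 called member. The shares to set beside each list are the 1.67% and 1.11% of all genes tested, and the median log2 fold change of all genes tested was −0.0025. RLE and upper quartile scaling put that median at −0.0100 and −0.0137, too little to turn the direction of a list given here.

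**Figure D4:**
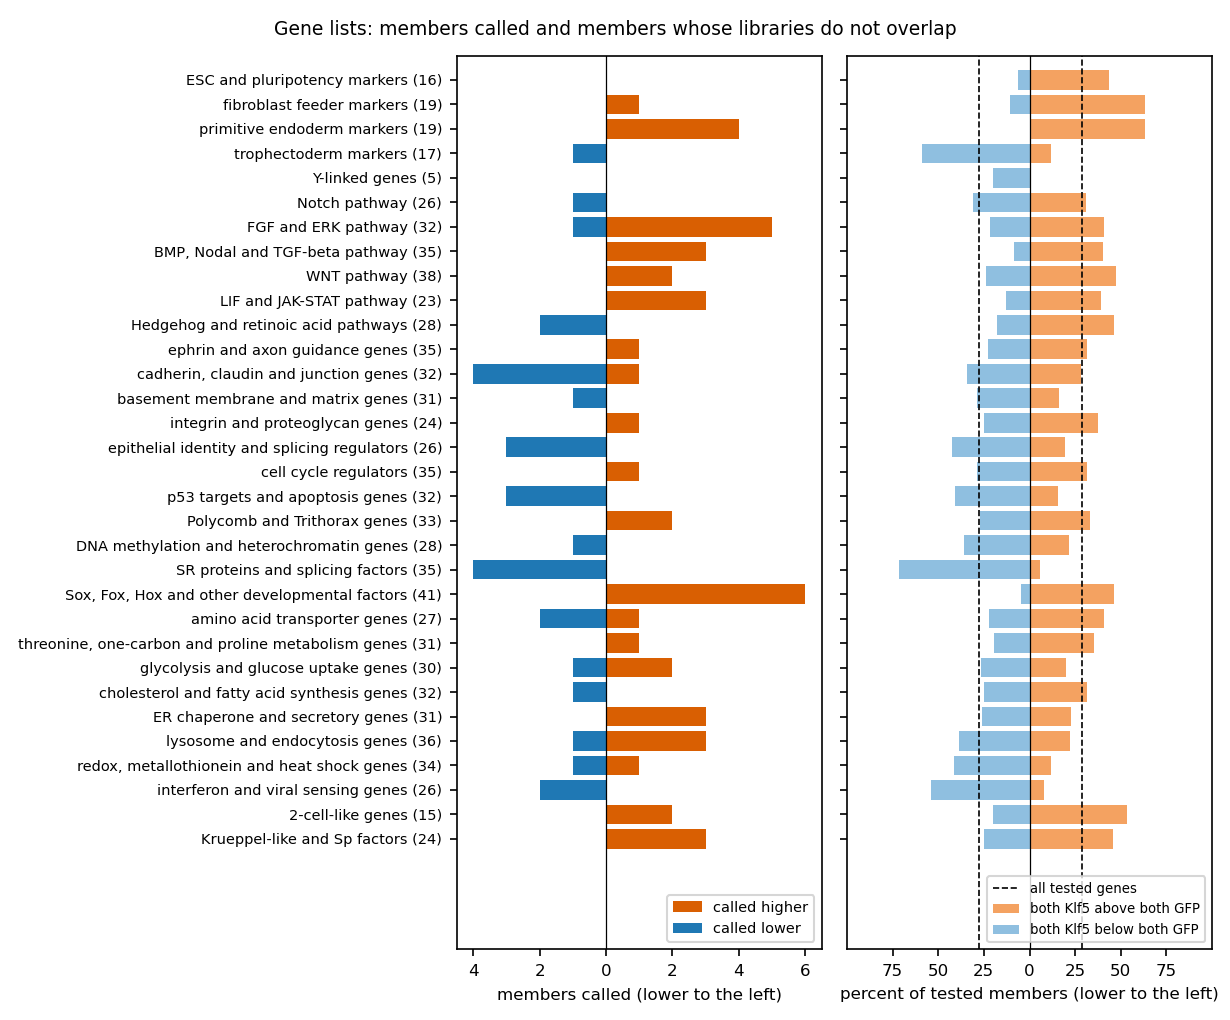
Left, members called higher (orange, right) and lower (blue, left) in each gene list with at least 5 tested members, with the number tested in brackets. Right, percent of tested members whose Klf5 libraries both lie above (right) or both below (left) the GFP libraries, with all genes tested as dashed lines at 28.9% and 27.4%. Of the lists drawn, the SR protein list reaches farthest to the left in the right panel.

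FGF ligands bind receptor tyrosine kinases that activate ERK, whose output is restrained by Sprouty, Spred and dual-specificity phosphatase proteins. In this pathway 5 of 32 members rose and 1 fell, with a median of 0.09. At the ligand level, Fgf10 stood at 1.03 and 1.57 CPM with GFP and 10.6 and 7.72 CPM with Klf5 (2.79 ± 0.30). Among receptors, Fgfr3 stood at 24.0 and 30.0 against 81.1 and 76.9 CPM (1.55 ± 0.15). Both genes were severalfold higher in each Klf5 library. The receptor gene Fgfr1 did not pass at 244 and 227 against 169 and 186 CPM (−0.41 ± 0.11, edgeR adjusted p = 0.0934). Fgfr2 did not pass either, at 16.0 and 17.2 against 5.60 and 10.8 CPM (edgeR adjusted p = 0.116).

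Feedback genes of the FGF pathway moved both ways. Spry2, an inhibitor of receptor signalling, stood at 36.9 and 32.1 CPM with GFP and 87.7 and 66.6 CPM with Klf5 (1.16 ± 0.17). Spred2, a related inhibitor, stood at 25.6 and 27.7 against 54.9 and 42.8 CPM (0.87 ± 0.16), and Etv5, an ETS factor induced by the pathway, at 56.6 and 76.1 against 129 and 119 CPM (0.90 ± 0.16). Dusp6, the ERK phosphatase, went the other way, at 85.9 and 72.8 against 46.1 and 52.5 CPM (−0.69 ± 0.14). Etv4, the close relative of Etv5, stood at 197 and 138 against 213 and 280 CPM and did not pass (edgeR adjusted p = 0.178). Of the 6 calls, 3 were kept without GFP 2, 4 without Klf5 1 and all 6 without Klf5 2. The list median was −0.02 without Klf5 1 and 0.20 without Klf5 2.

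In the BMP, Nodal and TGF-beta pathways 3 of 35 members rose and none fell, with a median of 0.17. Bmp4, a BMP ligand gene, stood at 12.4 and 9.46 CPM with GFP and 31.7 and 23.4 CPM with Klf5 (1.34 ± 0.21). Acvr1b, an activin and Nodal receptor gene, stood at 69.1 and 74.9 against 117 and 103 CPM (0.61 ± 0.12). Lefty2, encoding a secreted Nodal antagonist, stood at 20.8 and 27.4 against 62.3 and 48.4 CPM (1.19 ± 0.19). All 3 had higher levels in Klf5 1 than in Klf5 2. Its paralogue Lefty1 had the opposite sign, 68.2 and 99.0 against 54.6 and 50.9 CPM, and did not pass (edgeR adjusted p = 0.0951). Inhbb, an activin subunit gene, was at 8.27 and 8.70 against 39.8 and 20.5 CPM, just outside the threshold (edgeR adjusted p = 0.0538). The list median lay between 0.13 and 0.28 with 1 library left out.

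WNT ligands act through Frizzled receptors and beta-catenin, and 2 of 38 listed members rose (median 0.08). Wnt6, a ligand gene, stood at 4.53 and 3.93 CPM with GFP and 8.89 and 15.3 CPM with Klf5 (1.52 ± 0.29). Cdx1, a caudal homeobox gene that WNT activates, stood at 8.31 and 5.96 against 24.6 and 26.1 CPM (1.84 ± 0.20). Axin2, the general feedback target of the pathway, did not pass at 11.8 and 12.0 against 23.1 and 16.4 CPM (edgeR adjusted p = 0.0867). Wnt7b and Rnf43, an inhibitor of Frizzled, had the opposite sign and did not pass (log2 fold changes −1.58 and −1.17).

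LIF signals through gp130 and STAT3 and keeps mouse ESCs undifferentiated. Of 23 tested members 3 rose and none fell, with a median of 0.20. Cntfr, encoding a ligand-binding subunit of the gp130 receptor family, stood at 33.3 and 28.3 CPM with GFP and 62.3 and 68.5 CPM with Klf5 (1.09 ± 0.14). The transcriptional cofactor gene Bcl3 stood at 19.9 and 19.8 against 42.7 and 36.8 CPM (1.00 ± 0.14). Gbx2, a homeobox gene that STAT3 induces, stood at 4.85 and 6.31 against 17.5 and 13.4 CPM (1.46 ± 0.22). Socs3, the inhibitor induced by the pathway, stood at 271 and 349 against 567 and 403 CPM and did not pass (edgeR adjusted p = 0.125). The list median was 0.05 without Klf5 1.

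In the Notch pathway 1 of 26 members was called, Dll1, the gene of a Notch ligand. It stood at 226 and 239 CPM with GFP and 107 and 108 CPM with Klf5 (−1.11 ± 0.11). The libraries of each group were nearly equal and the groups far apart. Hes1, a Notch target gene, stood at 54.8 and 46.3 against 63.2 and 67.4 CPM and did not pass (edgeR adjusted p = 0.153). In the Hedgehog and retinoic acid pathways 2 of 28 members fell, Gli1 among them. Gli1, a Hedgehog effector and target gene, stood at 112 and 87.4 against 48.8 and 46.2 CPM (−1.07 ± 0.15). The median of this list was 0.21, opposite in sign to its 2 calls. Ptch1, the Hedgehog receptor and another target, was lower in both Klf5 libraries but did not pass (86.9 and 85.4 against 71.2 and 61.1 CPM, edgeR adjusted p = 0.126).

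Of 26 epithelial identity and splicing regulators 3 fell and none rose, and of 32 cadherin, claudin and junction genes 4 fell and 1 rose. In both Klf5 libraries 11 of the regulators were below GFP and 5 above. For the junction genes the counts were 11 below and 9 above, near the 27.4% and 28.9% of all genes tested. Grhl2, a Grainyhead transcription factor that activates junction genes, stood at 22.7 and 19.3 CPM with GFP and 5.66 and 7.83 CPM with Klf5 (−1.64 ± 0.21). Esrp1, an epithelial splicing factor gene, stood at 45.3 and 40.4 against 17.95 and 18.1 CPM (−1.25 ± 0.13). Rab25, encoding a GTPase of apical recycling, stood at 17.0 and 11.7 against 3.24 and 3.78 CPM (−2.02 ± 0.25). All 3 were highest in GFP 1, and neither Klf5 library reached the GFP libraries, as in every falling gene. The median of the regulator list ranged from −0.39 to −0.04 with 1 library left out.

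Among junction genes, Cldn4, a tight-junction claudin gene, stood at 942 and 732 CPM with GFP and 265 and 332 CPM with Klf5 (−1.49 ± 0.18). Cldn3 stood at 39.7 and 30.5 against 15.8 and 18.3 CPM (−1.04 ± 0.17). Epcam, encoding an epithelial adhesion molecule, stood at 316 and 295 against 169 and 177 CPM (−0.82 ± 0.11). F11r, encoding the junctional molecule JAM-A, stood at 85.7 and 70.5 against 47.5 and 49.5 CPM (−0.69 ± 0.13). Its relative Jam2 was the 1 junction gene that rose, from 43.0 and 51.2 to 161 and 115 CPM (1.55 ± 0.18). Cdh1, E-cadherin, did not pass at 501 and 421 against 324 and 311 CPM (edgeR adjusted p = 0.0704). The medians were −0.18 in both lists, and without GFP 1 they were 0.08 for junction genes and −0.04 for the regulators.

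Single epithelial genes outside the lists were picked after their values were seen, and they moved both ways. Crb3, an apical polarity gene, stood at 126 and 96.2 CPM with GFP and 59.3 and 59.8 CPM with Klf5 (−0.90 ± 0.15). Scnn1a, an epithelial sodium channel subunit gene, stood at 20.5 and 15.6 against 8.70 and 8.39 CPM (−1.08 ± 0.19), and Prom2, a gene of membrane protrusions, at 3.34 and 2.17 against 0.626 and 0.586 CPM (−2.17 ± 0.36). In the other direction, Slc9a3r1, encoding an apical scaffold protein, rose from 69.6 and 81.4 to 159 and 156 CPM (1.06 ± 0.12), and Trim29 rose by 0.97 on the log2 scale. Keratins did not pass in any of 21 tested genes, but their summed level was 2063 CPM in GFP 1, 962 in GFP 2, 361 in Klf5 1 and 829 in Klf5 2. Krt18, of simple epithelia and trophectoderm, stood at 747 and 335 against 53.6 and 207 CPM (edgeR adjusted p = 0.321). Trophectoderm markers were lower too, with 10 of 17 below and 2 above in both Klf5 libraries and a list median of −0.93. Beside them stand 27.4% and 28.9% of all genes tested. The lists share members: Cldn4, the 1 called trophectoderm marker, is also among the junction genes above. The part of trophectoderm-like cells in the values of these epithelial genes was not tested.

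Matrix and adhesion receptor genes changed little as groups. Lama5 was the 1 of 31 basement membrane and matrix genes called, with a list median of 0.02. Its relative Lama1, a laminin chain of embryonic endoderm, stood at 152 and 98.0 CPM with GFP and 257 and 623 CPM with Klf5 and did not pass (edgeR adjusted p = 0.175). Itgb7, an integrin beta subunit gene, rose alone among 24 integrin and proteoglycan genes, from 48.2 and 47.4 to 84.2 and 79.8 CPM (0.78 ± 0.11). Sema4a, encoding a membrane semaphorin, rose alone among 35 ephrin and axon guidance genes, from 17.9 and 18.1 to 36.3 and 34.8 CPM (0.98 ± 0.13).

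Developmental transcription factors rose more often than they fell. Of 41 tested Sox, Fox, Hox and related genes 6 rose and none fell. In 19 of the 41 both Klf5 libraries were above both GFP libraries, and in 2 both were below. Among all genes tested these shares were 28.9% and 27.4%. Tbx3, a T-box factor of naive ESCs, stood at 165 and 155 CPM with GFP and 372 and 314 CPM with Klf5 (1.10 ± 0.13). Foxd3, a forkhead factor of pluripotent cells, stood at 4.57 and 6.18 against 15.3 and 12.7 CPM (1.38 ± 0.22). Foxo3, a forkhead factor restrained by insulin signalling, stood at 119 and 121 against 183 and 201 CPM (0.67 ± 0.11). Tbx3 and Foxd3 were higher in Klf5 1 and Foxo3 in Klf5 2. Sox3 rose from 4.26 and 5.83 to 11.6 and 11.0 CPM, and Sox1, of early neural cells, from 0.636 and 1.35 to 7.15 and 3.89 CPM (2.43 ± 0.45). The median was 0.20 and stayed between 0.16 and 0.28 with any 1 library left out.

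Of homeobox genes outside that list, Rhox9 fell, as given above, and 8 that rose were picked after their values were seen. Nkx6-2 stood at 11.6 and 11.5 CPM with GFP and 32.0 and 26.0 CPM with Klf5 (1.33 ± 0.16), and Nkx6-3 at 4.69 and 4.80 against 14.9 and 10.5 CPM (1.42 ± 0.23). Vax2, a ventral eye factor, stood at 1.39 and 2.63 against 10.7 and 6.90 CPM (2.11 ± 0.36), and Pou4f2, of retinal ganglion cells, at 0.875 and 1.22 against 6.85 and 3.89 CPM (2.34 ± 0.37). En2, Pax8, Hhex and Cux2 rose by 1.18, 1.61, 1.23 and 0.92 on the log2 scale. All 8 had non-overlapping groups, as did every called gene. Nkx6-2, Nkx6-3, Vax2 and Pou4f2 were higher in Klf5 1.

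Within the Krüppel-like and Sp family 3 of 24 members rose, Klf5 among them, and none fell. Klf3, a repressor of the family, stood at 5.09 and 4.80 CPM with GFP and 12.8 and 10.8 CPM with Klf5 (1.26 ± 0.19). Klf9 stood at 102 and 101 against 150 and 164 CPM (0.63 ± 0.11). Klf4 did not pass at 517 and 603 against 857 and 620 CPM (edgeR adjusted p = 0.233). Sp1, the general GC-box factor, was lower in both Klf5 libraries, at 218 and 186 against 152 and 132 CPM, without passing (edgeR adjusted p = 0.0800).

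Of 35 SR proteins and splicing factors 4 fell and none rose, and 25 were below in both Klf5 libraries against 2 above, beside 27.4% and 28.9% of all genes tested. The median of −0.21 ranged from −0.24 to −0.19 with 1 library left out. Leng8 stood at 449 and 404 CPM with GFP and 167 and 182 CPM with Klf5 (−1.29 ± 0.12). Srsf3, an SR protein gene, stood at 141 and 133 against 91.3 and 79.5 CPM (−0.68 ± 0.12). Luc7l3, of the U1 snRNP-associated Luc7 family, stood at 49.5 and 44.9 against 28.8 and 26.5 CPM (−0.77 ± 0.13), and Pnisr at 145 and 134 against 94.6 and 85.2 CPM (−0.63 ± 0.11). For all 4 genes the Klf5 libraries lay closer to each other than to either GFP library. Srrm2, a scaffold of nuclear speckles, stood at 757 and 670 against 493 and 404 CPM just outside the threshold (edgeR adjusted p = 0.0579). Hnrnpa2b1 was 1 of the 2 members above in both Klf5 libraries (457 and 520 against 599 and 600 CPM).

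Single genes of RNA-binding proteins outside that list were picked after their values were seen, and they moved both ways. Tardbp, encoding TDP-43, stood at 348 and 291 CPM with GFP and 180 and 189 CPM with Klf5 (−0.79 ± 0.13). Dhx9, an RNA helicase gene, stood at 117 and 125 against 80.9 and 66.1 CPM (−0.72 ± 0.13). Rbm15, encoding an adaptor of RNA methylation, stood at 93.9 and 75.8 against 50.8 and 51.4 CPM (−0.73 ± 0.14). L1td1, an RNA-binding protein gene of pluripotent cells, rose from 29.0 and 33.4 to 76.3 and 61.0 CPM (1.14 ± 0.16). Zfp36l2, whose product binds AU-rich elements in mRNA, rose by 0.60 on the log2 scale.

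Histone genes of the replication-dependent clusters, a family picked after values were seen, were lower with Klf5. Of 62 tested, 5 fell and none rose, and the median was −0.75 (−0.92 to −0.58 with 1 library left out). In both Klf5 libraries 44 were below and 3 above, beside 27.4% and 28.9% of all genes tested. Their summed level was 544 and 524 CPM with GFP and 292 and 377 CPM with Klf5. Hist1h1c, a linker histone gene, stood at 140 and 113 against 57.0 and 72.0 CPM (−0.97 ± 0.16), and Hist1h1e at 4.45 and 3.82 against 1.03 and 1.12 CPM (−1.94 ± 0.27). The others called, Hist1h4j, Hist1h4m and Hist1h4n, encode the same protein from near-identical copies, so their split of reads is uncertain. Most histone messages of this class lack a poly(A) tail, so poly(A)-selected libraries measure a remainder of them. Cell cycle regulators did not move as a group: 1 of 35 was called, Cdkn1b, encoding the inhibitor p27, which rose from 45.9 and 42.6 to 70.3 and 68.2 CPM (0.65 ± 0.12), and the median was 0.05.

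Mitochondrially encoded genes were lower as well. Of 13 tested, 3 fell, and the median was −0.48 (−0.56 to −0.40 with 1 library left out). In both Klf5 libraries 11 of the 13 were below, beside 27.4% of all genes tested. The complex I subunit gene mt-Nd1 stood at 707 and 647 CPM with GFP and 450 and 410 CPM with Klf5 (−0.65 ± 0.12). The cytochrome b gene mt-Cytb stood at 605 and 619 against 364 and 340 CPM (−0.80 ± 0.11), and mt-Atp8 at 66.4 and 76.5 against 42.9 and 40.0 CPM (−0.79 ± 0.13). The family's share of counts did not follow, at 0.656% and 0.810% with GFP and 0.793% and 0.623% with Klf5. The oxidase subunit gene mt-Co1 stood at 2784 and 3690 against 4298 and 3526 CPM and did not pass (edgeR adjusted p = 0.419). None of 86 cytosolic ribosomal protein genes passed, with a median of −0.26 and shares of counts of 13.1%, 12.0%, 10.8% and 12.0% in GFP 1, GFP 2, Klf5 1 and Klf5 2.

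Genes of interferon response and antigen presentation were mostly lower. Of 26 tested, 2 fell and none rose, and the median was −0.41 (−0.52 to −0.38 with 1 library left out). In both Klf5 libraries 14 were below and 2 above, beside 27.4% and 28.9% of all genes tested. Stat2, a transducer of type I interferon signals, stood at 71.2 and 71.2 CPM with GFP and 42.0 and 41.2 CPM with Klf5 (−0.77 ± 0.11). B2m, the light chain of MHC class I, stood at 77.3 and 81.0 against 48.9 and 46.5 CPM (−0.73 ± 0.11). The libraries of each group nearly coincided. Of 23 MHC class I genes, a family picked after values were seen and rich in near-identical copies, H2-T22 fell from 32.0 and 37.3 to 20.0 and 18.2 CPM (−0.86 ± 0.14), and H2-Q5 by 1.13. The summed fibroblast markers had the opposite sign, as given above, and the part of feeders in these values was not tested.

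Among p53 targets and apoptosis genes 3 of 32 fell and none rose, with a median of −0.11. Plk2, a stress-induced kinase gene, stood at 267 and 206 CPM with GFP and 108 and 127 CPM with Klf5 (−1.01 ± 0.16). Trp53inp1, a p53-induced nuclear protein gene, stood at 195 and 188 against 109 and 122 CPM (−0.73 ± 0.11), and Mdm4, an inhibitor of p53, at 167 and 183 against 116 and 114 CPM (−0.61 ± 0.11). All 3 were lower in each Klf5 library than in each GFP library, as were all 178 falling genes. Cdkn1a, the p21 gene, did not pass at 586 and 503 against 364 and 436 CPM (edgeR adjusted p = 0.128). The list median was −0.02 without GFP 1.

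Chromatin regulators gave few calls. In the Polycomb and Trithorax list 2 of 33 rose, Epop, which encodes a partner of Polycomb repressive complex and elongin, from 167 and 175 to 256 and 267 CPM (0.61 ± 0.11), and Men1, a menin gene of Trithorax complexes, from 22.8 and 25.8 to 45.4 and 38.8 CPM (0.79 ± 0.14). In the DNA methylation and heterochromatin list 1 of 28 was called. Dppa3, which protects maternal DNA methylation and limits UHRF1, stood at 15.3 and 16.8 CPM with GFP and 3.24 and 4.74 CPM with Klf5 (−2.01 ± 0.23). Prdm14, a naive-state regulator, stood at 2.78 and 3.20 against 11.5 and 5.40 CPM and did not pass (edgeR adjusted p = 0.0822). Of 15 genes of the 2-cell-like state 2 rose, Zscan4b from 0 counts to 41 and 50 (at least 13.0-fold, its reads uncertain among near-identical copies), and Sp110, a nuclear body gene, from 1.43 and 2.14 to 7.15 and 8.76 CPM (2.14 ± 0.28).

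Secretory pathway genes were called upward 3 times in 31, against a list median of −0.06. Xbp1, a transcription factor of the unfolded protein response, stood at 23.4 and 25.6 CPM with GFP and 47.6 and 53.8 CPM with Klf5 (1.05 ± 0.13). Ckap4, an endoplasmic reticulum sheet protein gene, stood at 55.2 and 57.7 against 115 and 121 CPM (1.06 ± 0.11), and Kdelr3, encoding a receptor that returns proteins to the endoplasmic reticulum, at 26.0 and 23.4 against 61.2 and 54.0 CPM (1.22 ± 0.14). The list median lay between −0.12 and 0.05 with 1 library left out. The luminal chaperone gene Calr did not pass at 1379 and 1193 against 890 and 1002 CPM (edgeR adjusted p = 0.124). The called members were thus single genes of a list whose median was near that of all genes.

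In the lysosome and endocytosis list 3 of 36 rose and 1 fell. Ctsc, a lysosomal cathepsin gene, stood at 17.5 and 13.7 CPM with GFP and 32.9 and 37.8 CPM with Klf5 (1.19 ± 0.17). Cubn and Dab2, an endocytic receptor and an adaptor used by extraembryonic endoderm, stood at 7.04 and 7.91 against 36.0 and 79.5 CPM and at 6.92 and 8.67 against 26.5 and 51.0 CPM. Both were highest in Klf5 2, as were Sox7 (0.994 and 0.867 against 6.20 and 13.0 CPM) and Hnf4a (0.278 and 0.461 against 2.39 and 4.63 CPM), endodermal transcription factor genes that rose with them among 19 primitive endoderm markers. The median of those markers was 1.73, and 0.82 without Klf5 2. Mcoln1, a lysosomal channel gene, fell from 77.2 and 75.1 to 46.0 and 50.8 CPM (−0.65 ± 0.12).

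Metabolic lists held scattered calls in both directions. Hk2, the hexokinase gene of glycolysis, stood at 196 and 208 CPM with GFP and 395 and 327 CPM with Klf5 (0.84 ± 0.13), and Egln3, an oxygen-sensing hydroxylase gene, at 59.5 and 63.1 against 96.9 and 96.3 CPM (0.66 ± 0.11). Ldhb, a lactate dehydrogenase subunit gene, fell from 434 and 469 to 257 and 206 CPM (−0.96 ± 0.14). The median over 30 glycolysis and glucose uptake genes was −0.08. Outside the lists and picked after values were seen, Epas1, the hypoxia-inducible factor HIF-2 alpha gene, rose from 58.4 and 70.5 to 165 and 133 CPM (1.21 ± 0.15). Mpc1, a mitochondrial pyruvate carrier gene picked likewise, rose from 15.5 and 15.6 to 37.7 and 33.7 CPM (1.20 ± 0.14).

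Tdh, encoding the threonine dehydrogenase on which mouse ESCs depend, rose alone among 31 threonine, one-carbon and proline genes, from 85.2 and 94.3 to 199 and 150 CPM (0.96 ± 0.15). Of 27 amino acid transporter genes Slc7a1, for cationic amino acids, rose from 58.8 and 52.4 to 85.6 and 88.6 CPM (0.65 ± 0.12). The neutral amino acid transporter genes Slc38a2 and Slc38a4 fell. Slc38a2 stood at 130 and 132 CPM with GFP and 61.4 and 77.9 CPM with Klf5 (−0.91 ± 0.14), and Slc38a4 at 96.3 and 108 against 57.3 and 55.3 CPM (−0.86 ± 0.12). Abcg1, a sterol exporter gene, was the 1 of 32 cholesterol and fatty acid genes called, falling from 49.5 and 55.1 to 32.8 and 34.5 CPM (−0.64 ± 0.13).

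In the redox list Srxn1, the sulfiredoxin gene, stood at 11.7 and 13.8 CPM with GFP and 28.4 and 25.3 CPM with Klf5 (1.07 ± 0.15). Gstm1, a glutathione transferase gene, fell from 49.5 and 56.3 to 29.6 and 29.7 CPM (−0.84 ± 0.13). They were the only calls among 34 genes, whose median was −0.12. Keap1, encoding the sensor that restrains NRF2, rose from 18.3 and 20.8 to 39.2 and 35.4 CPM (0.93 ± 0.14) and was picked after its values were seen.

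**Figure D5:**
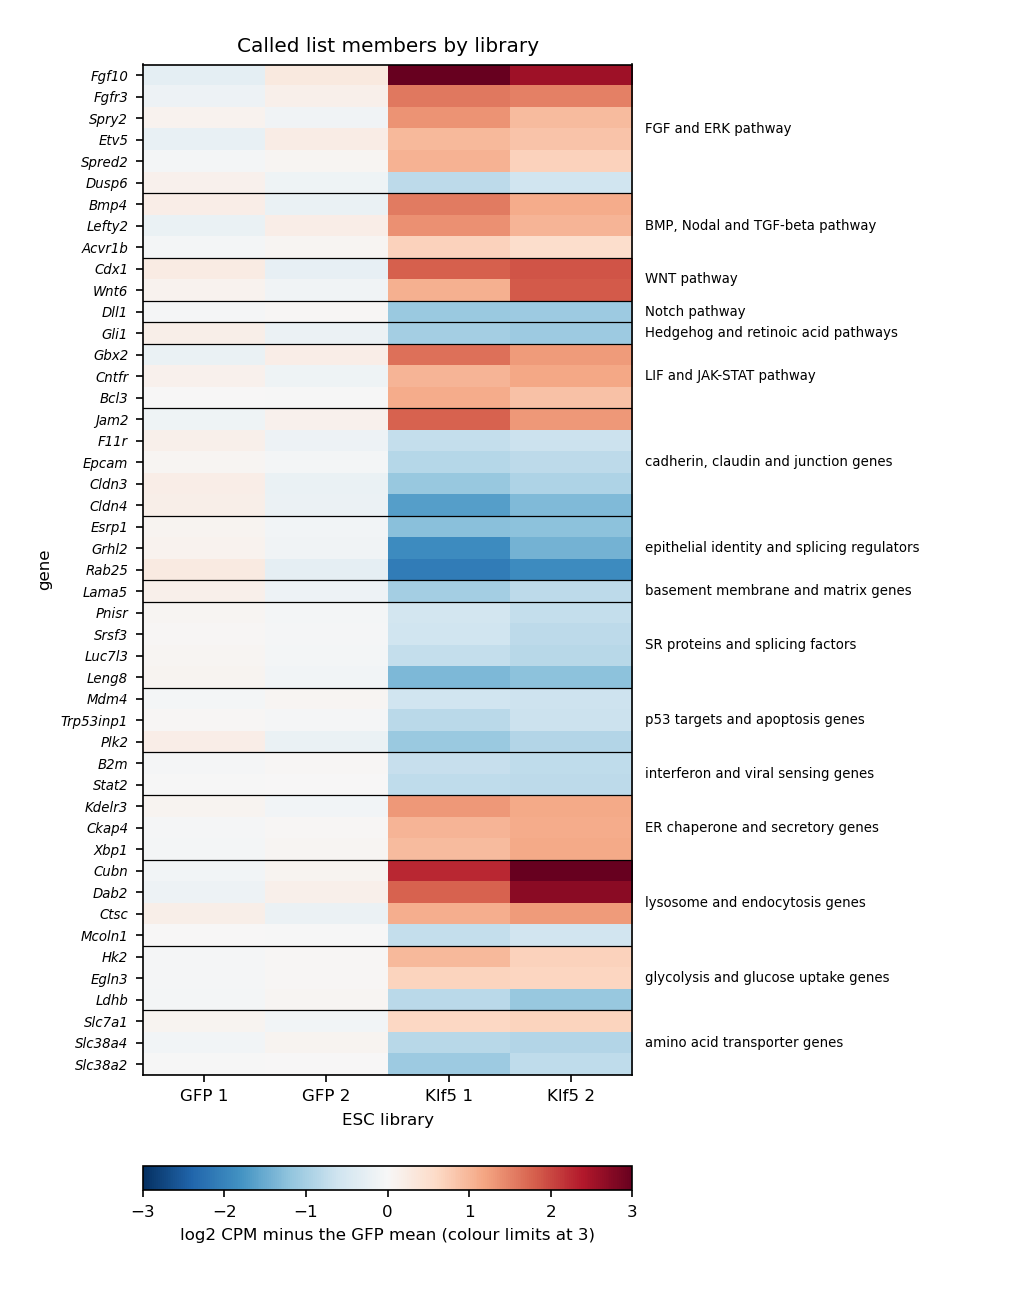
Log2 CPM minus the GFP mean for called members of the gene lists named at the right (rows) in the 4 ESC libraries (columns), red above and blue below, with the colour scale ending at ±3. Both Klf5 columns have the same sign in every row because rows are called genes. Cubn and Dab2 are higher in Klf5 2, and most FGF and BMP members in Klf5 1.

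The embryos offer the opposite manipulation in other samples, 6 with Klf5 siRNA and 10 with scramble siRNA. The embryo labelled Klf5 siRNA 1 had Klf5 at 543 CPM, within the 382 to 592 CPM of scramble embryos, which goes against its label. Of 12385 genes tested there, 12.0% were higher and 7.74% lower with Klf5 siRNA. Of the 266 genes that rose with Klf5 in ESCs, 205 were tested in embryos, and 31 were lower (15.1%) and 14 higher (6.83%) with the siRNA. For all genes tested in both, the shares were 8.02% lower and 12.0% higher. Of the 178 genes that fell in ESCs, 132 were tested, and 12 were higher (9.09%) and 6 lower (4.55%). The 31 genes were 3.24% of all genes lower in the siRNA embryos, and the 12 were 0.806% of all genes higher. In the 12 embryos whose numbers both groups share, 12 and 4 of the ESC-higher genes were lower and higher. Without the embryo labelled Klf5 siRNA 1 they were 33 and 14. No test of these overlaps was made. Mitochondrial transcripts took 2.45% to 10.3% of counts in siRNA embryos and 4.34% to 18.5% in scramble embryos, and their part in these counts was not tested.

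Several named ESC genes were called in the opposite direction in embryos. Nynrin had a lowest, median and highest level of 18.4, 28.7 and 44.1 CPM in scramble embryos and 0.504, 10.1 and 19.9 CPM after Klf5 siRNA (log2 fold change −1.60, edgeR adjusted p = 0.0349). Fgf10 had 5.20, 11.8 and 23.3 CPM against 0.389, 2.65 and 10.4 CPM (−1.71, edgeR adjusted p = 0.0368). Klf9 had 29.4, 44.5 and 65.4 CPM against 17.4, 29.7 and 35.2 CPM (−0.71, edgeR adjusted p = 0.0416). The ranges overlapped in all 3. Bmp4 was at 0 in all 6 siRNA embryos and between 0 and 7.13 CPM in scramble embryos (median 2.64 CPM, edgeR adjusted p = 0.00233). Among genes that fell in ESCs, Dppa3 had 2076, 4136 and 6221 CPM in scramble embryos and 4612, 12174 and 15158 CPM with the siRNA (1.41, edgeR adjusted p = 0.00145). Plk2 (2.46), Trp53inp1 (1.70) and B2m (1.82) were also higher in the siRNA embryos. Trp53inp1 had 10.5, 20.8 and 35.5 CPM in scramble embryos and 24.0, 34.5 and 239 CPM with the siRNA. Its highest siRNA embryo lay far from the others.

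Other named genes moved the same way in both experiments. Esrp1 (−1.14) and Epcam (−1.02), lower in ESCs with more Klf5, were lower in embryos with the siRNA too. Esrp1 had 20.8, 43.1 and 78.5 CPM in scramble embryos and 11.9, 18.1 and 33.4 CPM with the siRNA (edgeR adjusted p = 0.0130). Epcam had 623, 1004 and 1306 CPM against 292, 398 and 771 CPM (edgeR adjusted p = 0.0124). Sp110 (1.85), Srxn1 (1.67) and Tubb4b (0.62), higher in ESCs with Klf5, were also higher in siRNA embryos. The calls of Klf5, Nynrin, Fgf10, Klf9, Epcam, Sp110 and Tubb4b were lost in the 12 embryos with shared numbers, fitted without a block. Bmp4 was not tested in them. With the replicate number as a block, the calls of Plk2, B2m, Esrp1 and Srxn1 were lost too. Of the embryo calls given here, those of Dppa3 and Trp53inp1 remained (edgeR adjusted p = 0.0291 and 0.0397). An embryo holds trophectoderm and inner cell mass lineages in 1 sample, so its values and those of an ESC line are not of the same cells. The library kits differed as well.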

How the data were processed

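Poly(A) RNA was sequenced from 4 ESC and 16 single-embryo libraries, and the embryo libraries were made with another kit. The authors deposited expected counts (estimated counts per gene, without normalization), for which the submitters' processing notes name kallisto 0.46 and mm10. The sources used here do not say how transcripts were summed to genes or whether feeder reads were removed. The tables held 30265 genes each, of which 29831 had a symbol in GENCODE M21. Estimated counts were rounded, and ESC libraries held between 26.8 and 37.5 counts in units of 1e6.

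Samples were grouped by the labels' titles and genotypes. After filterByExpr (lowest count 10) and TMM scaling, genes were tested with the robust quasi-likelihood F test of edgeR 4.0.16 (R 4.3.3), adjusted by Benjamini and Hochberg over all genes tested, with a threshold of 0.05. Only the 4 ESC libraries entered the ESC fit, which left 2 residual degrees of freedom, and all 16 embryos a separate fit. CPM use TMM-scaled totals, and log2 CPM a prior count of 2. The 2 libraries of a group differed beyond counting noise (chi-square per degree of freedom 22.6 and 42.2), and each was entered as its own sample. The chi-square values alone cannot tell separate cultures from repeated preparations of the same RNA. Summed Y-linked counts also differed within each group, at 66 and 348 with GFP and 324 and 32 with Klf5. The source of that difference was not tested. 117 tested genes, 6 of them called, had counts identical to another gene.

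The members, lists and families were chosen with earlier results of these data known. Named genes are Klf5, the 10 rising and 10 falling with the smallest p among those changed at least 2-fold, the 5 most abundant and the 3 with the largest change in each direction (mean of at least 5 CPM in the higher group), and up to 3 called members of each list (if none, its member of smallest p). Predicted genes and pseudogenes were left out of the first groups. Some genes that the rule names are not reported here. Genes described as picked after their values were seen lie outside this rule, and other list members are given beside their list. Promoters came from RefSeq (GRCm38.p6), with 1 window per symbol. Kdm5d was named by the rule for the Y-linked list (edgeR adjusted p = 0.0919).

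Alternatives were RLE and upper quartile scaling, DESeq2 1.42.0, limma 3.58.1 voom, a 1.5-fold threshold in the test, a minimum of 5 CPM, the unfiltered table, a replicate block and each library left out. On simulated data for 15930 genes, edgeR recovered 6%, 58%, 100% and 100% of genes changed by 1.5-, 2-, 4- and 8-fold, and 7 of 139 calls were false. The simulation gave every gene the same dispersion and changed 50 genes per fold, all with a mean of at least 50 counts. Its shares need not hold for low or more variable genes.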

Additional observations from a re-analysis of the deposited data

Results flagged for a closer look

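Among the embryo values given beside the ESC genes, 3 of 29 groups of values had a sample far from the others of its group by Dixon's test, which chance alone gives in about 1 of 20 groups. All 3 lay in Klf5 siRNA embryos. The highest siRNA embryo stood at 33.4 CPM for Esrp1 (median 18.1 CPM), at 115 CPM for Sp110 (median 19.4 CPM) and at 239 CPM for Trp53inp1 (median 34.5 CPM). ESC groups of 2 libraries cannot be searched this way.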

How the results depend on the processing

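The Klf5 log2 fold change was between 3.50 and 3.69 in every setting tried. All other calls that were tested kept their direction, which the non-overlap of their libraries all but fixed. The number of calls depended on the setting. DESeq2 called 799 genes higher and 639 lower, limma voom 161 higher and 120 lower, the fit without a filter 527 and 343, and a filter at 5 CPM 384 and 270. A test against a 1.5-fold change called 1 higher and 0 lower. With 1 library left out, the counts ranged from 1 to 563 higher and from 0 to 435 lower. A fit with 1 library in a group assumes that it varies like the other group. Without GFP 1, 77 of the named genes lost their call.

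The replicate numbers do not show that samples are paired: the labels give no shared source, and deviations of same-numbered libraries correlated at −0.11 across genes. With the replicate block 103 genes were higher and 52 lower, of which 94 and 46 were also called without it. Pairing GFP 1 with Klf5 2 and GFP 2 with Klf5 1, as the Y-linked levels split them, was added after the data were seen and gave 798 higher and 677 lower, beside 266 and 178 without a block, and whether the replicate labels are crossed was not tested. In the 12 embryos with shared numbers, the replicate block gave 8 lower and 2 higher among ESC-higher genes, and 5 higher and 2 lower among ESC-lower genes. Without the block, an alternative added after the data were seen, the same embryos gave 12 lower and 4 higher, and 9 higher and 4 lower. With 2 libraries in each group, changes of 2-fold or less can be missed, and larger ones may be in low or more variable genes. In the simulated data 6% of 1.5-fold and 58% of 2-fold changes were recovered.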
